A study of Homo sapiens with 40 samples.

Results

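ID1, ID2, ID3, ID4, SMAD6, SMAD7, SKIL, SKI, BAMBI and TGIF1, which are target and feedback genes of TGF-beta and BMP signaling, were followed in breast cancer cells given ERBB ligands. They were chosen by exact gene name as 10 of the 44584 rows of the count table, and all 10 passed the filter on low counts in each fit, among 25146 genes tested in BT474, 24287 in BT474R and 24641 across both lines. RNA was sequenced from BT474, a HER2-overexpressing luminal breast ductal carcinoma line that responds to trastuzumab, and from BT474R, a single resistant clone derived from it by growth in trastuzumab. Cells were starved of serum (T0) and then kept in fresh starvation medium with 50 ng/mL epidermal growth factor (EGF), 10 ng/mL heregulin (HRG) or water as the vehicle for 1 h, 12 h or 24 h. That makes 20 groups of 2 libraries, 40 in all. The study's methods describe the treatments as done in duplicate. The labels number the libraries of a group but do not say that they came from separate cultures or experiments. The p-values thus measure the spread between these libraries, which may be technical. EGF and HRG were compared with the same vehicle libraries, and their doses differ.

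TGF-beta and BMP ligands bind serine/threonine kinase receptors, which phosphorylate receptor SMADs. These join SMAD4 in the nucleus and switch on a set of genes that includes the pathway's own brakes. SMAD6 and SMAD7 are inhibitory SMADs that block the activated receptors, BAMBI is a pseudoreceptor that lacks the kinase domain, and SKI, SKIL (SnoN) and TGIF1 are corepressors that bind SMAD complexes on DNA. The ID proteins, which BMP signaling induces in many cell types, are helix-loop-helix proteins without a DNA-binding region that sequester E proteins and hold back differentiation. EGF binds EGFR, and HRG binds HER3 and HER4, and these receptors pair with HER2.

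The sequence before the transcription start is shown for 5 members that changed against vehicle in BT474. ID2, called there as often as ID1, SKIL and BAMBI, is not shown, and its window held no searched motif. Each window holds the 250 bases upstream of a start in RefSeq (GRCh38.p14), on the gene's own strand, 5′ to 3′, and 9 of the 10 members had such a window. Capitals mark matches, on either strand, to CAGAC (bound by SMADs), GGCGCC (a GC-rich SMAD1/5 element), TGACTCA (AP-1), TGACGT (the core of a CRE), GGGGGCG (EGR factors) or CACGTG (an E-box). Of 35116 such windows, these motifs were found in 38%, 16.4%, 4.2%, 7.1%, 21.6% and 6.34%, in the same order. The windows lie at chr20:31605039-31605288 (+ strand) for ID1, chr6:19837120-19837369 (+) for ID4, chr3:170357465-170357714 (+) for SKIL, chr10:28677271-28677520 (+) for BAMBI and chr18:48950966-48951215 (− strand) for SMAD7, for the first of whose 3 listed starts the window is shown.
ID1: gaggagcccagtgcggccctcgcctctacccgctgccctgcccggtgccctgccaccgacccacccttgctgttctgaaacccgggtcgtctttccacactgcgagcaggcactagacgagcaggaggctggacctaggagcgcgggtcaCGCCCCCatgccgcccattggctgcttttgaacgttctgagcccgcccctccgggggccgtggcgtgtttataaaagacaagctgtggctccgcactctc
ID4: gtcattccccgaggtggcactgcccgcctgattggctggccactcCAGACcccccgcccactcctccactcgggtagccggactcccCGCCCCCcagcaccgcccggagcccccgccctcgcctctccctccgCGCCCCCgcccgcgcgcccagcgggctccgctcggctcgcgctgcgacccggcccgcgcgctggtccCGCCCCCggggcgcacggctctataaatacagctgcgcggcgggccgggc
SKIL: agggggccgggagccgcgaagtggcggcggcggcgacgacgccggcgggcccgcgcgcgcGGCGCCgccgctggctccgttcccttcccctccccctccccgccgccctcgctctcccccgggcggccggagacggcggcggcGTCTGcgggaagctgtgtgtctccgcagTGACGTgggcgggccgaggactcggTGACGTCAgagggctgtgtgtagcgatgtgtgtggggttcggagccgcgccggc
BAMBI: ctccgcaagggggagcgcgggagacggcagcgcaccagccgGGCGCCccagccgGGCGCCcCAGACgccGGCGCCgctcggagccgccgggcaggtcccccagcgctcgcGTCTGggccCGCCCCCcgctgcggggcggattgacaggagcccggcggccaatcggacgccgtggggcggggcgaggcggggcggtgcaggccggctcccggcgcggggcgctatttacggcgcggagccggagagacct
SMAD7: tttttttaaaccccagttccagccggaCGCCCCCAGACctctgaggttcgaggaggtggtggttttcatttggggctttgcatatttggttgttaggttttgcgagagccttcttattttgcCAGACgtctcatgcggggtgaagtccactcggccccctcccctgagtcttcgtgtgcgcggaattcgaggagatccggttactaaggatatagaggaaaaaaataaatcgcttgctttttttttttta
In the ID1 window a single GGGGGCG match stood 100 bases before the start. The ID4 window held 3 of them, 163, 117 and 50 bases before the start, and 1 CAGAC. SKIL had 3 TGACGT matches, of which the 2 nearest the start overlap on opposite strands, beside 1 CAGAC and 1 GGCGCC. BAMBI had 3 GGCGCC, 2 CAGAC and 1 GGGGGCG, and in the SMAD7 window 1 of its 2 CAGAC matches overlapped a GGGGGCG. No searched motif was found in the windows of ID2 and SMAD6. A match is a stretch of letters and not a measured binding site.

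Libraries held 19200632 to 29098915 counts in BT474 and 16794594 to 33387936 in BT474R. Luminal markers, ERBB2 among them, summed to 10700 to 17160 CPM (normalised read counts, relative to library size) in every library, whereas basal markers summed to 1.19 to 10.3, endothelial markers to 9.12 to 23.1 and leukocyte markers to 1.35 to 5.49, with PTPRC and CD3E at the detection limit of 3 counts throughout. ERBB2 alone held 5994 to 10550 CPM of the luminal sum, and the luminal marker GATA3 ranged from 10.6 to 546 CPM over the libraries. VWF, at 8.61 to 23.0 CPM, made up most of the endothelial sum. Fibroblast markers summed to 75.2 to 295.2 CPM, almost all of it COL1A1, while DCN and PDGFRB were at the limit. The 24 h HRG libraries of BT474R differed most from each other (median chi-square 2.56 over genes, against 0.455 from counting noise and at least 0.595 in any group). All values in CPM are scaled by TMM factors over the 40 libraries, fold changes are log2 with their standard error (SE), and adjusted p-values are those of the quasi-likelihood test in edgeR, corrected over every gene tested by the Benjamini-Hochberg method, with a threshold of 0.05. Levels of different genes are not compared, since CPM does not account for gene length. Less RNA per cell and fewer cells of a kind cannot be told apart in such bulk samples.

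Against vehicle, ID1 and SKIL rose in both lines, BAMBI rose in BT474 and fell in BT474R, and at most 5 of the 10 members passed the test in any comparison. In BT474, 5 passed after 1 h of EGF, when 2.19% of all genes tested did, and 4 after 1 h of HRG, when 2.77% did. At 12 h, 3 passed with EGF (16% of all genes) and 4 with HRG (25.8%), and at 24 h, 3 with EGF (16.4%) and 4 with HRG (24.1%). In BT474R, 2 passed after 1 h of EGF (0.457% of all genes), 4 at 12 h (12%) and 5 at 24 h (17.3%). With HRG in BT474R, 2 passed at 12 h (4.12%) and 1 at 24 h (2.78%). After 1 h of HRG in BT474R (0.169% of all genes) edgeR called 0 members, with 2, ID1 and SKIL, under an unadjusted p of 0.05, and DESeq2 called 1, SKIL. The members were picked with earlier results of these data known, so these shares describe them and do not show that the set is special. SMAD6 and SKI passed in none of the 12 comparisons.

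**Figure D1:**
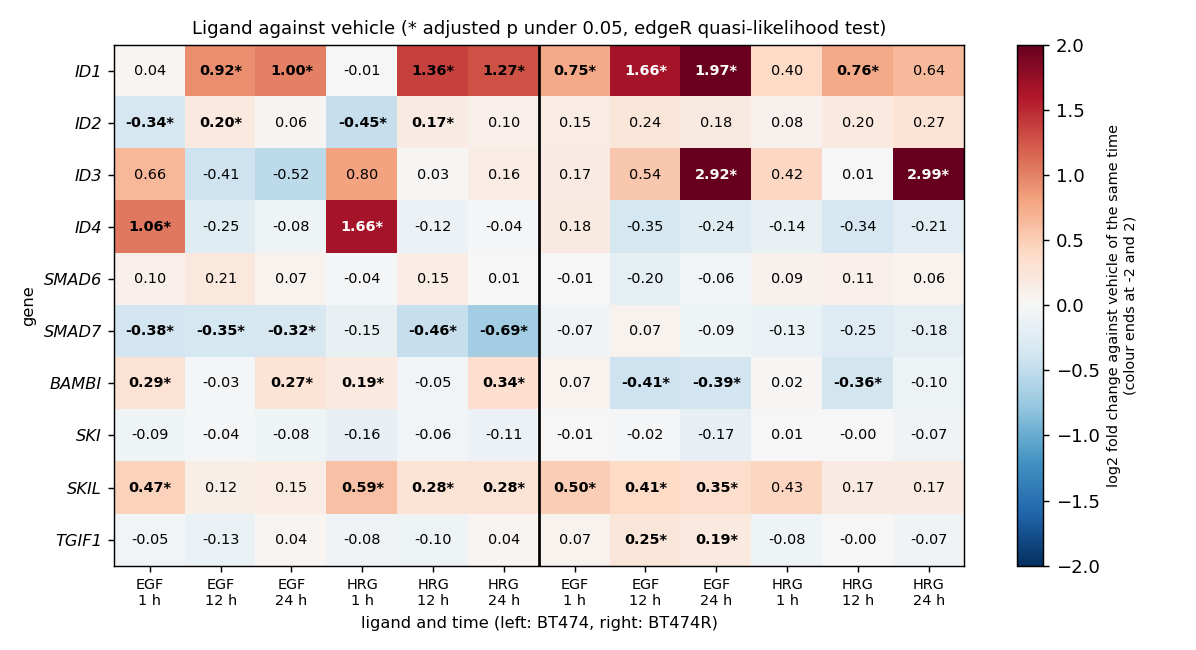
Log2 fold change of each member (rows) against the vehicle of the same time in the 12 combinations of line, ligand and time (columns), with an asterisk where the adjusted p was under 0.05. ID1 is positive and marked in 8 of the 12 columns, BAMBI is marked positive in 4 BT474 columns and negative in 3 BT474R columns, and SMAD6 and SKI carry no mark.

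ID1 was the member that responded in the most comparisons, and it rose with both ligands at 12 h in both lines. In BT474 it was 2.69 and 1.96 CPM with vehicle at 12 h, 4.80 and 4.18 with EGF and 6.04 and 6.25 with HRG. At 24 h it was 1.32 and 2.01 with vehicle, 3.10 and 3.80 with EGF and 3.97 and 4.38 with HRG. The ligand libraries lay above both vehicle libraries each time. The differences were 0.92 ± 0.19 (SE, adjusted p = 0.00044) for EGF and 1.36 ± 0.17 (7.69e-08) for HRG at 12 h, and 1.00 ± 0.22 (0.000735) and 1.27 ± 0.21 (6.82e-06) at 24 h, that is, 1.90 to 2.57-fold. At 1 h, in contrast, vehicle (7.69 and 6.51 CPM), EGF (7.37 and 7.45) and HRG (7.91 and 6.22) overlapped, with differences of 0.04 ± 0.14 and -0.01 ± 0.15.

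In BT474R, ID1 was already higher 1 h after EGF, at 14.6 and 14.9 CPM against 8.75 and 8.73 with vehicle (0.75 ± 0.13, adjusted p = 0.00372). HRG gave 13.1 and 9.84 CPM at that time, also above both vehicle libraries, but the difference of 0.40 ± 0.13 did not pass (0.895). At 12 h ID1 was 3.10 and 3.20 CPM with vehicle, 10.3 and 9.72 with EGF and 5.62 and 5.21 with HRG, and both ligands raised it, by 1.66 ± 0.16 (1.45e-07) and 0.76 ± 0.17 (0.00971). At 24 h it was 1.69 and 2.12 with vehicle, 6.54 and 8.26 with EGF and 2.79 and 3.05 with HRG. EGF raised it 3.92-fold (1.97 ± 0.18, 7.21e-08), the largest ID1 difference of the 12, and the HRG libraries, again above vehicle without overlap, differed from it by 0.64 ± 0.22 (0.131). With any 1 of its 4 libraries left out, the 1 h EGF call no longer passed although the estimate held at 0.75 to 0.76. The 12 h HRG call was lost without replicate 1 or 2 of its vehicle or replicate 1 of HRG (0.70 to 0.84).

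ID4 rose at 1 h in BT474, and in no ligand comparison of BT474R did it pass the test. It was 3.48 and 3.40 CPM with vehicle at 1 h, 7.30 and 7.23 with EGF and 11.8 and 10.04 with HRG, without overlap between any of these groups. EGF raised it 2.08-fold (1.06 ± 0.19, adjusted p = 0.000429) and HRG 3.16-fold (1.66 ± 0.19, 2.96e-08). By 12 h and 24 h it lay between 0.574 and 1.83 CPM in all 12 libraries, where ligand and vehicle overlapped and the differences were -0.25 to -0.04. In BT474R, ID4 had 1 to 29 counts in a library (0.0469 to 0.898 CPM), and 2 of its 20 libraries were at or under the detection limit of 3 counts. No ligand effect on it was detectable at that depth, with differences of -0.35 to 0.18 and SEs of 0.49 to 0.78.

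ID2 moved in 2 directions in BT474. At 1 h it was 91.8 and 94.4 CPM with vehicle, and lower in all 4 ligand libraries, at 75.3 and 73.9 with EGF (-0.34 ± 0.05, adjusted p = 2.97e-06) and 68.5 and 68.4 with HRG (-0.45 ± 0.05, 8.52e-09). At 12 h it was 101 and 98.3 with vehicle, and higher in all 4, at 119 and 112 with EGF (0.20 ± 0.05, 0.00137) and 115 and 113 with HRG (0.17 ± 0.05, 0.00455). At 24 h it was 87.5 and 86.9 with vehicle, 87.4 and 95.8 with EGF and 95.7 and 94.4 with HRG, and neither difference passed (0.06 ± 0.05 and 0.10 ± 0.05). The 12 h calls were lost in 1 fit of both lines. In BT474R, ID2 varied more between the libraries of a group, for example 117 and 141 CPM with vehicle at 12 h against 152 and 151 with EGF and 140.4 and 158 with HRG. All 6 differences there were positive, 0.08 to 0.27 with SEs of 0.10 or 0.11, and none passed. Without replicate 2 of the 12 h vehicle the EGF difference passed, and without replicate 1 of HRG the 24 h HRG difference did. The antisense row ID2-AS1 had 0.423 to 1.60 CPM in every library, and its span in RefSeq (GRCh38.p14) does not overlap that of ID2. Since the strand setting is not given, antisense reads within ID2 itself cannot be told apart.

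ID3 had few counts, 4 to 40 in a library of BT474 and 2 to 23 in BT474R, where 3 libraries were at or under the detection limit. Its reads may be split with another row, ID3_1, taken from its name alone to be a copy of the gene. ID3_1 held more reads than ID3 itself in every library, and ID3 took 8.7% to 40.9% of their sum (median 25.4%). ID3 was 0.0769 and 0.0941 CPM with vehicle at 24 h in BT474R, which is 2 counts in each library. It was 0.741 and 0.610 CPM with EGF (17 and 15 counts) and 0.605 and 0.797 with HRG (13 and 17 counts). The ratio of counts, scaled to library size, was 7.96 for EGF (95% exact interval 2.82 to 31.0, counting error only) and 8.28 for HRG (2.92 to 32.4), and both passed the test on the ID3 row (adjusted p = 0.00206 and 0.0106). With ID3_1 added, the values were 0.769 and 1.08 CPM with vehicle, 3.62 and 3.78 with EGF and 2.00 and 2.53 with HRG, and the ratios fell to 4.07 (2.90 to 5.83) and 2.49 (1.72 to 3.66), still without overlap and still called (3.28e-06 and 0.00789). The HRG call on the ID3 row alone was lost without replicate 1 of vehicle or replicate 2 of HRG (2.78 to 3.15), and with only the libraries compared in the fit.

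Summing both rows also brought out ID3 where its own row had not passed. In BT474 at 1 h the sum was 3.11 and 3.28 CPM with vehicle, 4.65 and 5.65 with EGF (0.69, adjusted p = 0.0214) and 5.74 and 5.35 with HRG (0.81, 0.00415). On the ID3 row alone the same comparisons gave 0.66 ± 0.29 and 0.80 ± 0.30, neither of which passed. In BT474R at 12 h the sum was 1.95 and 1.36 with vehicle against 3.65 and 3.60 with EGF (1.15, 0.000867). The plot of ID genes by library shows the sum.

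**Figure D2:**
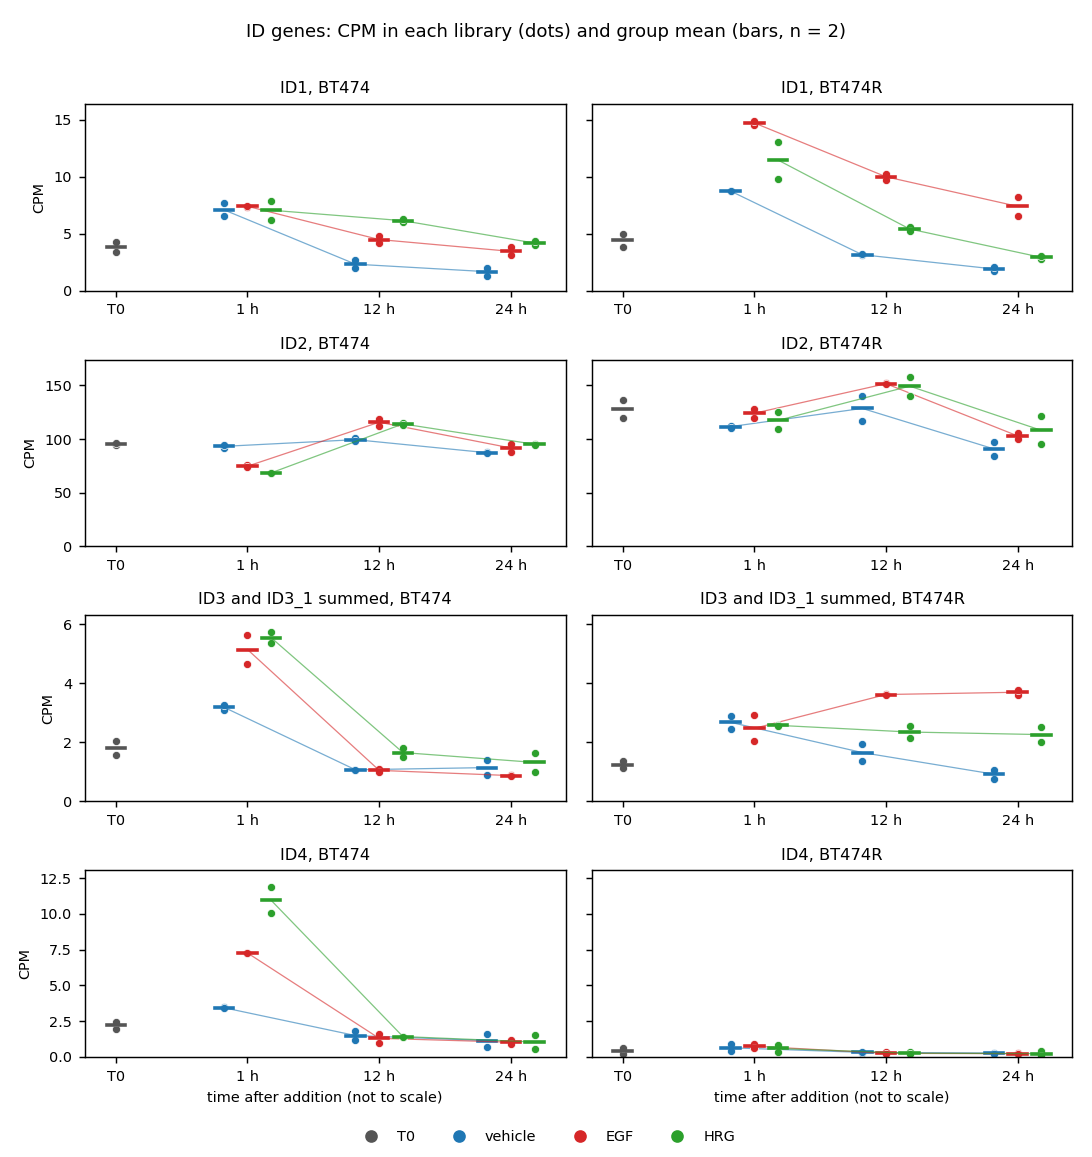
CPM (vertical axis) of ID1, ID2, ID3 with its copy row summed in, and ID4 at T0, 1 h, 12 h and 24 h (horizontal axis, not to scale) in BT474 (left) and BT474R (right), with a dot for each library and a bar for the mean of the 2 libraries of a group. ID1 falls from 1 h to 24 h in every treatment, with the ligand libraries above vehicle at 12 h and 24 h, and ID4 has a peak at 1 h in BT474 that is highest with HRG.

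BAMBI rose in BT474 and fell in BT474R. In BT474 at 1 h it was 106 and 109.9 CPM with vehicle, 134 and 134 with EGF (0.29 ± 0.05, adjusted p = 9.15e-05) and 134 and 114 with HRG (0.19 ± 0.05, 0.0209). At 12 h all 6 libraries lay between 107 and 112 CPM, and neither difference passed (-0.03 ± 0.05 and -0.05 ± 0.05). At 24 h it was again higher with EGF (115 and 114) and HRG (121 and 123) than with vehicle (91.7 and 97.2), by 0.27 ± 0.05 (0.000118) and 0.34 ± 0.05 (1.05e-06). The HRG call at 1 h depended on single libraries and was lost without replicate 1 or 2 of vehicle or replicate 1 of HRG (0.09 to 0.32), in 1 fit of both lines and with only the libraries compared.

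In BT474R, BAMBI was 154 and 158 CPM with vehicle, 163 and 165 with EGF and 159.9 and 154 with HRG at 1 h, where neither difference passed (0.07 ± 0.06 and 0.02 ± 0.06). At 12 h it was 144 and 149 with vehicle, and lower with EGF (110.1 and 111, -0.41 ± 0.07, adjusted p = 0.000119) and HRG (116 and 115, -0.36 ± 0.06, 0.00134). At 24 h it was 164 and 159 with vehicle and 127 and 121 with EGF (-0.39 ± 0.06, 0.000164), whereas the HRG libraries, at 165 and 134, lay on either side of the vehicle range (-0.10 ± 0.06). The 12 h HRG call was lost without replicate 2 of vehicle or of HRG (-0.37 to -0.30), and the 24 h HRG difference passed only without replicate 1 of HRG (-0.28).

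SMAD7 was lower with ligand than with the vehicle of the same time in BT474. No ligand effect on it passed in BT474R, although no difference between the lines in that effect passed either. In BT474 it was 10.6 and 11.0 CPM with vehicle at 1 h, 8.36 and 8.47 with EGF (-0.38 ± 0.10, adjusted p = 0.0204) and 9.54 and 10.1 with HRG (-0.15 ± 0.10, 0.618). At 12 h it was 16.1 and 17.0 with vehicle, 13.1 and 13.2 with EGF (-0.35 ± 0.09, 0.00288) and 12.0 and 12.4 with HRG (-0.46 ± 0.08, 3.97e-05). At 24 h it was 14.5 and 14.8 with vehicle, 11.4 and 12.3 with EGF (-0.32 ± 0.09, 0.00869) and 9.09 and 9.42 with HRG (-0.69 ± 0.09, 1.72e-07). Every ligand library lay below both vehicle libraries of its time. At T0 SMAD7 was 13.3 and 13.1 CPM, near the 12 h EGF values, and ligand was not tested against T0. The EGF calls were the less stable. At 1 h EGF was lost without any 1 of its 4 libraries (-0.40 to -0.35), with DESeq2, in 1 fit of both lines and with only the libraries compared, at 12 h it was lost without replicate 2 of vehicle (-0.40 to -0.31 over the left-out libraries), and at 24 h without replicate 2 of vehicle or replicate 1 of EGF (-0.39 to -0.25) and with only the libraries compared. In BT474R, SMAD7 lay between 4.56 and 8.86 CPM in all 20 libraries, and its 6 differences were -0.25 to 0.07.

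SMAD6, the inhibitory SMAD tied most closely to BMP receptors, showed no change with ligand. It ranged from 8.61 to 11.5 CPM in BT474 and from 9.81 to 14.5 in BT474R, and its differences were -0.20 to 0.21 with SEs of 0.10 to 0.12. Changes of that size are near what 2 libraries a group can resolve, and the test does not show that SMAD6 was constant.

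**Figure D3:**
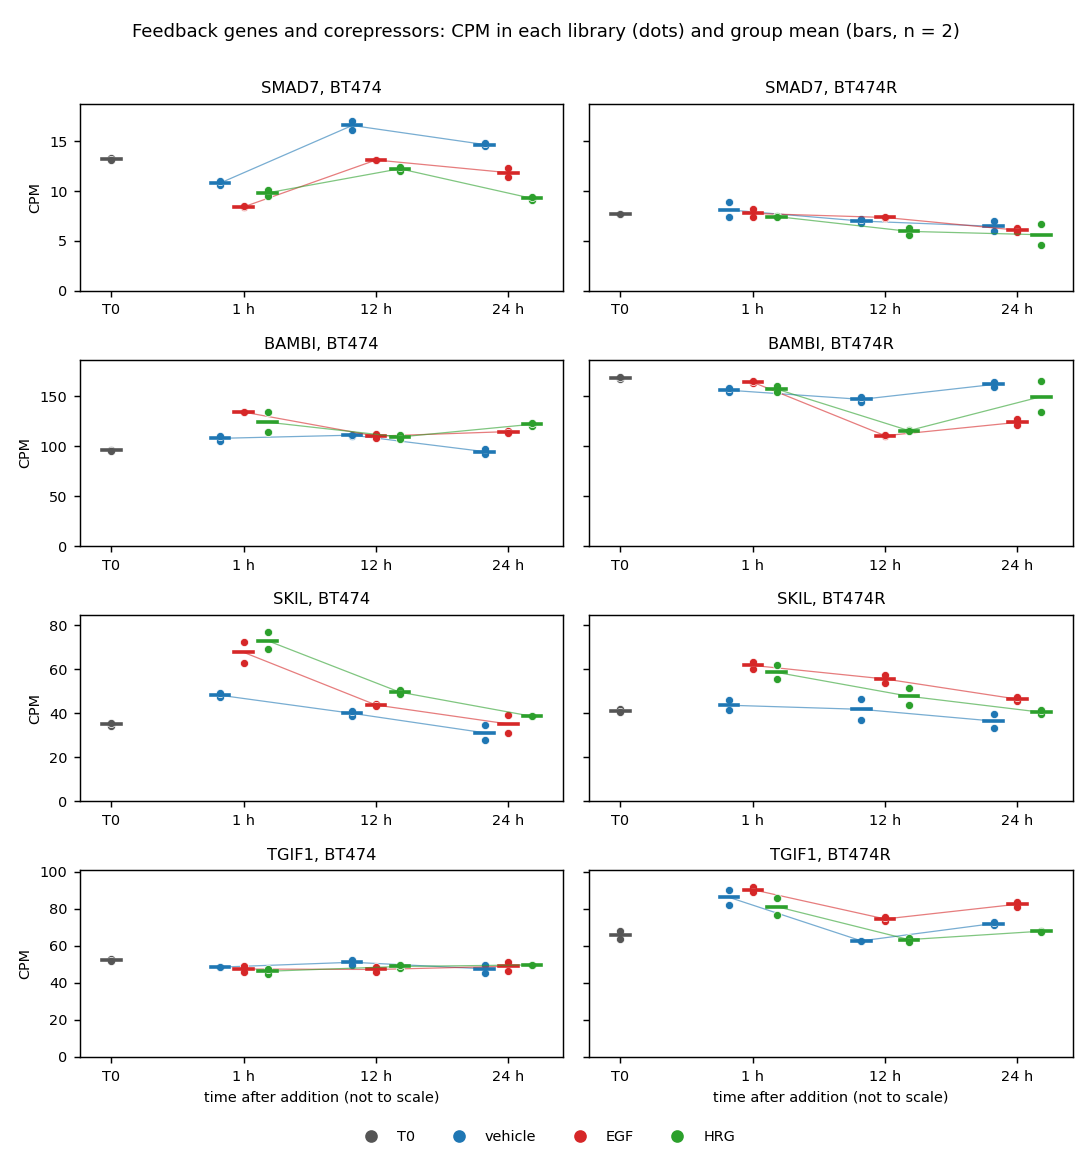
CPM (vertical axis) of SMAD7, BAMBI, SKIL and TGIF1 by time (horizontal axis, not to scale) in BT474 (left) and BT474R (right), with a dot for each library and a bar for the mean of the 2 libraries of a group. SMAD7 lies below vehicle with both ligands in BT474, BAMBI lies below vehicle in BT474R at 12 h, and SKIL is highest 1 h after either ligand.

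SKIL, which encodes the corepressor SnoN, rose in both lines, with the largest estimates at 1 h. No change of its ligand effect between times passed the test. In BT474 it was 47.3 and 49.0 CPM with vehicle at 1 h, 62.9 and 72.3 with EGF (0.47 ± 0.08, adjusted p = 0.00011) and 76.8 and 68.9 with HRG (0.59 ± 0.08, 1.44e-06). HRG also raised it at 12 h, to 50.4 and 48.7 against 38.8 and 41.1 (0.28 ± 0.08, 0.00835), and at 24 h, to 38.6 and 38.6 against 27.7 and 34.6 (0.28 ± 0.09, 0.0158). With EGF it was 44.2 and 43.3 at 12 h (0.12 ± 0.08), above vehicle but short of the threshold, and 31.1 and 39.2 at 24 h (0.15 ± 0.09), where the groups overlapped.

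In BT474R, SKIL was 41.3 and 46.0 CPM with vehicle at 1 h and higher with EGF, at 60.1 and 63.2 (0.50 ± 0.10, adjusted p = 0.0147), as with HRG, at 55.4 and 61.7 (0.43 ± 0.10), which did not pass (0.137). EGF raised it at 12 h, to 57.3 and 53.7 against 36.9 and 46.6 (0.41 ± 0.10, 0.00882), and at 24 h, to 45.5 and 47.2 against 33.1 and 39.8 (0.35 ± 0.10, 0.0207). The HRG differences at those times were 0.17 ± 0.10 each. All 12 SKIL differences were positive (0.12 to 0.59). The later calls rested on single libraries. In BT474 the HRG call was lost without replicate 1 of vehicle at 12 h (0.23 to 0.33 over the left-out libraries) and without replicate 1 of vehicle or of HRG at 24 h (0.14 to 0.46), both were lost with DESeq2, and the 24 h EGF difference passed without replicate 2 of vehicle or replicate 1 of EGF (-0.03 to 0.33). The 1 h EGF call in BT474 was lost with only the libraries compared. In BT474R the EGF call was lost at 1 h without replicate 1 of vehicle or either EGF library (0.42 to 0.59), at 12 h without replicate 1 of vehicle or of EGF (0.26 to 0.61), and at 24 h without replicate 1 of vehicle or either EGF library (0.22 to 0.49). The 1 h HRG difference in BT474R passed with no filter on low counts, with DESeq2 and with only the libraries compared.

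SKI, the founding member of that corepressor family, lay between 69.0 and 86.3 CPM in BT474 and 62.6 and 78.1 in BT474R, with differences of -0.17 to 0.01. The lowest was at 24 h with EGF in BT474R, at 62.6 and 64.5 CPM against 70.4 and 72.6 with vehicle without overlap (-0.17 ± 0.06, adjusted p = 0.0506). It passed with filterByExpr, with copy rows summed and in 1 fit of both lines. The 1 h HRG difference in BT474 (-0.16 ± 0.05, 0.0848) passed with filterByExpr.

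TGIF1, a homeodomain corepressor, rose with EGF in BT474R only among the ligand comparisons that passed. It was 62.8 and 62.6 CPM with vehicle at 12 h against 73.5 and 75.6 with EGF (0.25 ± 0.06, adjusted p = 0.00827), and 71.2 and 72.9 at 24 h against 83.9 and 81.1 (0.19 ± 0.06, 0.0285). With HRG it was 64.5 and 62.3 at 12 h and 68.2 and 67.7 at 24 h (-0.00 ± 0.06 and -0.07 ± 0.06). In BT474 it lay between 45.0 and 53.1 CPM in all 20 libraries, with differences of -0.13 to 0.04. The EGF calls were lost without replicate 1 of vehicle or replicate 2 of EGF at 12 h (0.24 to 0.27), and without replicate 1 of vehicle or either EGF library at 24 h (0.16 to 0.23) and with only the libraries compared.

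The vehicle libraries show how the members moved after the change of medium alone. In BT474, 3 members passed against T0 at 1 h (6.61% of all genes did), 3 at 12 h (6.41%) and 2 at 24 h (11.4%). In BT474R, 2 passed at 1 h (2.24%) and 2 at 24 h (13.7%), while at 12 h (1.13%) edgeR called 0, with 3, ID1, ID3 and BAMBI, under an unadjusted p of 0.05, and DESeq2 called 0. ID1 rose by 1 h and fell by 24 h in both lines, whose courses were not tested against each other. From 3.40 and 4.25 CPM at T0 in BT474 it rose to 7.69 and 6.51 at 1 h (0.91 ± 0.16, adjusted p = 0.000182), then fell to 2.69 and 1.96 at 12 h (-0.69 ± 0.19, 0.0217) and 1.32 and 2.01 at 24 h (-1.15 ± 0.21, 0.00015). From 4.98 and 3.84 at T0 in BT474R it rose to 8.75 and 8.73 (1.00 ± 0.16, 0.000665), was 3.10 and 3.20 at 12 h, where the difference did not pass (-0.46 ± 0.18, 0.397), and fell to 1.69 and 2.12 at 24 h (-1.20 ± 0.21, 0.000452). The 24 h ligand libraries of BT474 (3.10 to 4.38 CPM) thus lay about the T0 range, and those with EGF in BT474R (6.54 and 8.26) above it.

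Of the other members in BT474, SKIL (34.1 and 35.8 CPM at T0) rose by 1 h with vehicle (0.48 ± 0.09, adjusted p = 0.00021), and BAMBI (96.6 and 95.4 at T0) rose by 1 h (0.18 ± 0.05, 0.0247) and 12 h (0.20 ± 0.05, 0.00685). SMAD7 (13.3 and 13.1 at T0) rose by 12 h (0.32 ± 0.09, 0.0142), and ID4 (1.97 and 2.45 at T0) fell by 24 h (-0.99 ± 0.31, 0.0319). In BT474R, TGIF1 rose from 63.9 and 67.8 to 82.1 and 90.4 CPM at 1 h (0.39 ± 0.06, 0.000521) and ID2 fell from 137 and 119.5 to 84.2 and 97.3 at 24 h (-0.49 ± 0.11, 0.00329). ID1 at 12 h and ID4 at 24 h in BT474 and BAMBI and SMAD7 at 12 h were lost without single libraries, in each case replicate 2 of T0 among them (ID1 -0.95 to -0.51, ID4 -1.66 to -0.44, BAMBI 0.19 to 0.22, SMAD7 0.27 to 0.37), as was BAMBI at 1 h without any 1 of its 4 (0.15 to 0.20). In BT474R, ID1 at 1 h was lost without replicate 2 of T0 (0.82 to 1.18 over the left-out libraries), TGIF1 without replicate 2 of the 1 h vehicle (0.31 to 0.46), and ID2 without replicate 1 of T0 or of the 24 h vehicle (-0.60 to -0.38).

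Whether a ligand effect changed with time was tested as a difference of differences. In BT474, 4 members passed between 1 h and 12 h of EGF (7.72% of all genes did) and the same 4, ID1, ID2, ID4 and BAMBI, between 1 h and 12 h of HRG (14.2%). The EGF effect was larger at 12 h by 0.88 ± 0.24 for ID1 (adjusted p = 0.014), and smaller by 1.30 ± 0.38 for ID4 (0.0236) and 0.32 ± 0.07 for BAMBI (0.00181). For HRG the 12 h effect was larger by 1.37 ± 0.23 for ID1 (2.56e-05), and smaller by 1.78 ± 0.36 for ID4 (0.00041) and 0.25 ± 0.07 for BAMBI (0.0125). The ID2 effect changed sign, from lowered at 1 h to raised at 12 h, a difference of 0.54 ± 0.07 with EGF (1.73e-07) and 0.62 ± 0.07 with HRG (5.16e-09). From 12 h to 24 h 1 member passed with each ligand, BAMBI, whose effect was larger at 24 h by 0.30 ± 0.07 with EGF (0.0393, 0.517% of all genes called) and 0.40 ± 0.07 with HRG (0.000306, 2.5%). BAMBI in BT474 was thus above vehicle at 1 h and 24 h and not at 12 h, and both steps of that course passed. The later step includes a fall of the vehicle mean, from 110.9 CPM at 12 h to 94.5 at 24 h. The EGF mean went from 109.9 to 114.5 and the HRG mean from 109 to 122. The later step with EGF and the earlier one with HRG were lost without single libraries.

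In BT474R, 2 members passed between 1 h and 12 h of EGF (4.43% of all genes), ID1 with a larger effect at 12 h (0.91 ± 0.21, adjusted p = 0.0108) and BAMBI with a more negative one (-0.485 ± 0.09, 0.00209). With HRG, 1 passed (0.992%), BAMBI (-0.38 ± 0.09, 0.0445), and it was lost without any 1 of its 8 libraries (-0.39 to -0.32). From 12 h to 24 h edgeR called 0 members with EGF (0.185% of all genes), with 1, ID3, under an unadjusted p of 0.05, and 0 with HRG (0.0288%), with 2, ID3 and BAMBI, and DESeq2 called 0 in either. ID1's effect of EGF between 1 h and 12 h was lost in BT474 without replicate 1 of the 1 h vehicle, replicate 2 of the 12 h vehicle or replicate 1 of the 12 h EGF (0.69 to 1.13), and in BT474R without replicate 1 of the 12 h vehicle or EGF (0.86 to 0.96). In BT474, ID4's with EGF was lost without 5 of the 8 libraries in turn (-1.71 to -0.93), BAMBI's with HRG from 1 h to 12 h without 4 (-0.37 to -0.14), and BAMBI's with EGF from 12 h to 24 h without 7 (0.24 to 0.33).

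EGF and HRG, as given, were compared directly. In BT474 edgeR called 0 members at 1 h (0.139% of all genes passed), with 4, ID2, ID4, SMAD7 and BAMBI, under an unadjusted p of 0.05, and 0 at 12 h (2.17%), with 1, ID1, and DESeq2 called 0 at both times. ID4 at 1 h was 1.52-fold higher with HRG than with EGF, without overlap (0.60 ± 0.16, adjusted p = 0.261). At 24 h 1 member passed (0.768%), SMAD7, lower with HRG (-0.37 ± 0.09, 0.0494). That call sat at the threshold and was lost without any 1 of its 4 libraries (-0.44 to -0.30) and with 6 of 9 alternative settings.

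In BT474R, ID1 separated the ligands. At 1 h edgeR called 0 members (0.0494% of all genes), with 2, ID1 and TGIF1, under an unadjusted p of 0.05, and DESeq2 called 0. At 12 h 2 passed (1.42%), ID1 (-0.90 ± 0.15, adjusted p = 0.00109) and TGIF1 (-0.25 ± 0.06, 0.0373), both lower with HRG. At 24 h 3 passed (5.18%): ID1 was 2.79 and 3.05 CPM with HRG against 6.54 and 8.26 with EGF (-1.33 ± 0.17, 2.16e-05), TGIF1 was also lower with HRG (-0.26 ± 0.06, 0.00929), and BAMBI was higher (165 and 134 against 127 and 121, 0.29 ± 0.06, 0.00818). With only the libraries compared in the fit, TGIF1 at 12 h and all 3 calls at 24 h were lost. TGIF1 at 12 h was lost without any 1 of its 4 libraries (-0.27 to -0.22), at 24 h without replicate 1 of EGF (-0.30 to -0.23 over the left-out libraries), and BAMBI at 24 h without replicate 1 of HRG or replicate 2 of EGF (0.11 to 0.43).

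Before any ligand, BT474R differed from BT474 widely, in the members as in genes at large. At T0, 7 members passed (46.9% of all genes did), as did 7 with vehicle at 1 h (50.2%), 7 at 12 h (49%) and 6 at 24 h (49.3%). Beside such shares these counts do not mark the members out. They include the ID3 row at T0 and at 24 h, which did not pass with ID3_1 added. ID4, at 1.97 and 2.45 CPM in BT474 and 0.180 and 0.608 in BT474R at T0, was lower in the resistant clone by 2.37 ± 0.48 (adjusted p = 7.45e-05) and by 1.98 to 2.34 with vehicle. SMAD7 was lower at T0 (13.3 and 13.1 against 7.74 and 7.68 CPM, -0.78 ± 0.11, 3.16e-07), and the gap was -0.40 ± 0.11 with vehicle at 1 h, -1.24 ± 0.11 at 12 h and -1.19 ± 0.11 at 24 h. BAMBI and TGIF1 were higher in BT474R in all 4 comparisons. BAMBI was 168 and 169.6 CPM at T0 against 96.6 and 95.4 in BT474 (0.81 ± 0.06, 7.27e-14), with a gap of 0.40 to 0.77 under vehicle. TGIF1 was higher by 0.33 ± 0.06 at T0 (2.47e-05), and by 0.83 ± 0.06 at 1 h, after its rise with vehicle in BT474R (1.83e-14).

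The remaining differences between the lines were smaller or less regular. ID2 and SMAD6 were higher in BT474R at T0 (0.43 ± 0.08 and 0.40 ± 0.11) and with vehicle at 1 h and 12 h (0.26 to 0.40), but did not pass at 24 h. SKI was lower with vehicle at each of the 3 times (-0.15 to -0.27) and fell short at T0 (-0.12 ± 0.05, adjusted p = 0.0618). ID1 and SKIL passed in none of the 4, with differences of 0.15 to 0.43 and -0.14 to 0.24. The ID3 row was lower in BT474R at T0 and at 24 h, with 2 and 5 counts at T0 against 14 and 13 in BT474 (ratio 0.316, 95% exact interval 0.116 to 0.743), but with ID3_1 added neither difference passed (-0.53 and -0.39). With vehicle at 1 h, ID2 was lost without any 1 of its 4 libraries (0.23 to 0.25), SMAD6 without either BT474 library or replicate 2 of BT474R (0.27 to 0.32), and SMAD7 (-0.59 to -0.29) and SKI (-0.21 to -0.13) without replicate 1 of BT474R. At 12 h ID2 was lost without replicate 2 of BT474R (0.21 to 0.52) and SMAD6 without its replicate 1 (0.22 to 0.58), and at 24 h ID4 without replicate 1 of BT474 (-2.55 to -1.31).

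**Figure D4:**
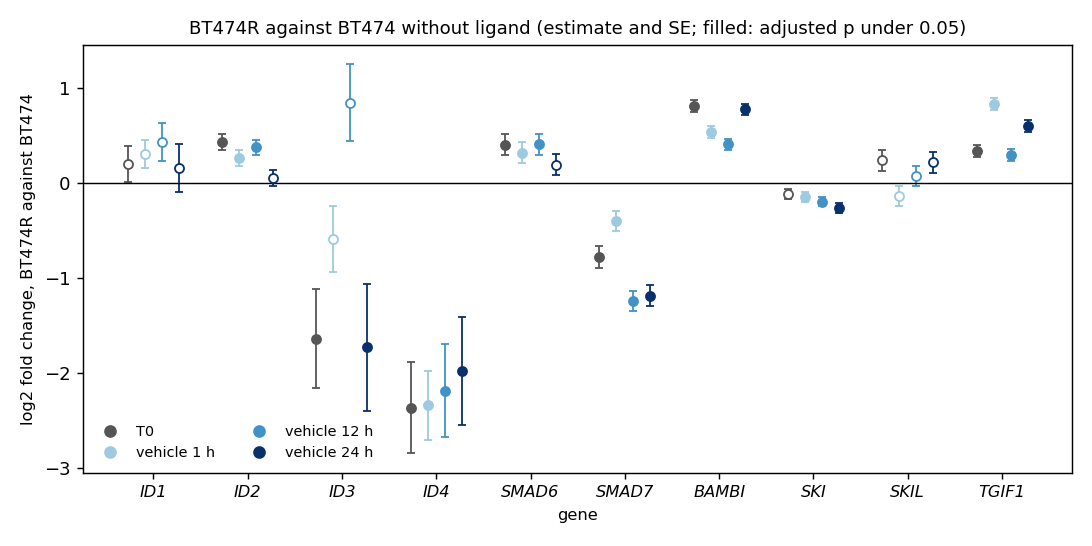
Log2 fold change of BT474R against BT474 (vertical axis, estimate with SE bars) for each member (horizontal axis) at T0 and in the vehicle groups of 1, 12 and 24 h, filled where the adjusted p was under 0.05. ID4 lies between -2.37 and -1.98 and SMAD7 between -1.24 and -0.40, all filled, while BAMBI (0.40 to 0.81) and TGIF1 (0.29 to 0.83) are filled above 0.

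Whether the ligand effects themselves differed between the lines was tested as an interaction. At 1 h of EGF edgeR called 0 members (0.138% of all genes), with 3, ID1, ID2 and BAMBI, under an unadjusted p of 0.05, and DESeq2 called 1, ID2. At 1 h of HRG 1 passed (0.544%), ID2, which HRG lowered in BT474 but not in BT474R (0.52 ± 0.12, adjusted p = 0.0237). At 12 h of EGF 2 passed (1.96%), BAMBI, more negative in BT474R (-0.40 ± 0.09, 0.00562), and TGIF1, more positive (0.36 ± 0.09, 0.014). At 12 h of HRG 1 passed (4.07%), BAMBI (-0.32 ± 0.09, 0.0234). At 24 h BAMBI and ID3 passed with EGF (4.01%) and with HRG (3.33%). BAMBI's effect differed by -0.66 ± 0.09 with EGF (1.45e-06) and -0.48 ± 0.09 with HRG (0.000444), and both held without any single library.

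ID3's effect at 24 h was larger in BT474R by 3.43 ± 0.81 with EGF (adjusted p = 0.00712) and 2.80 ± 0.78 with HRG (0.0365), again on 2 counts in each vehicle library of that line. With ID3_1 summed in, the difference was 2.45 with EGF (5.17e-05) and 1.18 with HRG, which did not pass (0.0938). The ID1 effect of EGF was larger in BT474R at each time (0.69 ± 0.20, 0.73 ± 0.26 and 0.96 ± 0.31), and its HRG effect at 12 h and 24 h smaller (-0.61 ± 0.26 and -0.66 ± 0.32), but none of these passed (adjusted p from 0.074 to 0.325). Nor did the difference for ID4 at 1 h, at -0.91 ± 0.55 with EGF (0.884) and -1.83 ± 0.56 with HRG (0.24). The ID2 call was lost without 7 of its 8 libraries in turn (0.44 to 0.60), TGIF1 without 6 (0.32 to 0.39), BAMBI at 12 h without 7 with HRG (-0.36 to -0.27) and 2 with EGF (-0.43 to -0.34), and ID3 at 24 h without 2 with EGF (3.13 to 3.63) and 6 with HRG (2.52 to 3.00). For SMAD7 with HRG at 24 h the difference of 0.47 ± 0.17 (adjusted p = 0.129) passed without replicate 1 of the BT474R HRG group (0.20 to 0.74 over the left-out libraries). For ID1 with EGF at 24 h, the difference passed without replicate 1 of the BT474 vehicle, replicate 2 of the BT474 EGF group or replicate 1 of the BT474R EGF group (0.61 to 1.19).

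**Figure D5:**
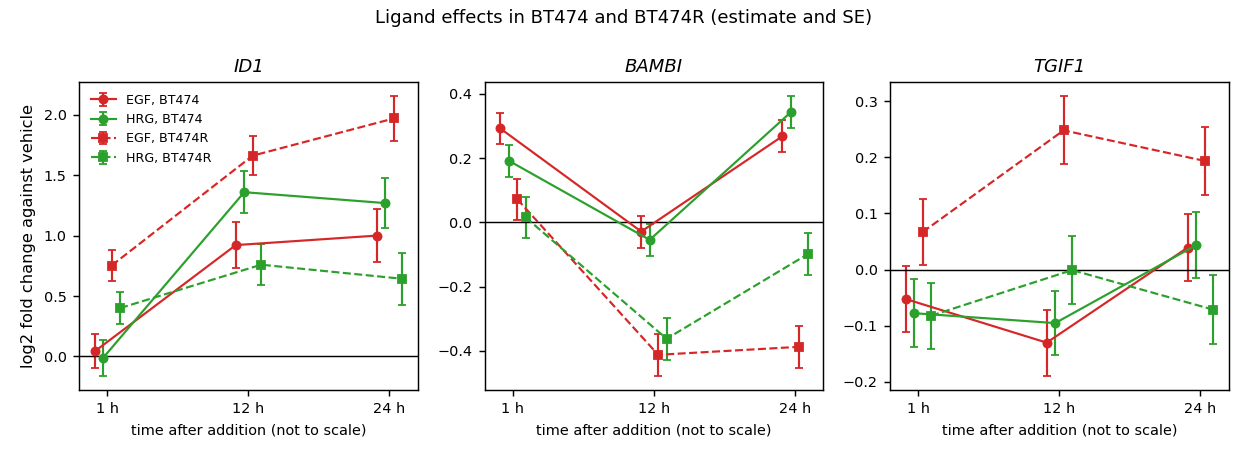
Log2 fold change against vehicle (vertical axis, estimate with SE bars) of ID1, BAMBI and TGIF1 by time (horizontal axis, not to scale), with EGF and HRG in BT474 (solid lines) and BT474R (dashed lines). The BAMBI lines part, from 0.27 and 0.34 in BT474 at 24 h to -0.39 and -0.10 in BT474R, and the EGF line of ID1 in BT474R is the highest at each time.

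Ordered over the 10 groups of a line, ID1 ran from 1.66 ± 0.49 CPM (SD, n = 2) with vehicle at 24 h to 7.41 ± 0.05 with EGF at 1 h in BT474, where 7 of 9 neighbouring groups overlapped, and from 1.90 ± 0.30 to 14.7 ± 0.22 between the same groups in BT474R, where 1 of 9 did. ID4 in BT474 ran from 1.03 ± 0.18 with EGF at 24 h to 10.9 ± 1.28 with HRG at 1 h, with its 3 highest groups all at 1 h and 5 of 9 neighbours overlapping. SMAD7 in BT474 ran from 8.41 ± 0.08 with EGF at 1 h to 16.6 ± 0.62 with vehicle at 12 h, with 2 of 9 overlapping. For ID4 in BT474R and TGIF1 in BT474 all 9 neighbours overlapped, so no step of those orders is resolved. The highest group was 1.13 to 2.34 times the lowest for SMAD6, SMAD7, SKIL, SKI, BAMBI, TGIF1 and ID2.

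The 2 genes most like each member were found by Pearson's correlation over the 20 group means of log2 CPM, each line centred on its own mean, among 13900 genes. The groups share vehicle and time, so the coefficients describe and do not test. ID4 had the closest company, PTGER4 (r = 0.975) and THBS1 (0.972), followed by SKIL with SDE2 (0.953) and ARC (0.946) and ID1 with AHR (0.933) and SHISA2 (0.926). For ID2 they were EPHB3 (0.906) and CLDN9 (0.902), for BAMBI GASK1B (0.862) and CA2 (0.827), and for ID3 FERMT2 (0.858) and HSPB8 (0.853). SKI was nearest to CFAP298-TCP10L (0.87) and RHOV (0.867), SMAD6 to MRPS25 (0.829) and ZNF681 (0.809), SMAD7 to RAB27B (0.835) and KDM2A (0.795), and TGIF1 to RAB11FIP1 (0.771) and ZNF217 (0.748).

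The rest of the pathway was read from lists of ligands, receptors, SMADs, antagonists, regulators, targets and helix-loop-helix partners. Over all genes and the 6 ligand comparisons of a line, 14.5% of tests passed in BT474 and 6.14% in BT474R. Of 20 other TGF-beta and BMP target genes, all tested, there were 30 calls up and 14 down in 120 tests in BT474, and 16 up and 2 down in 120 in BT474R. In BT474, 6 of its genes rose and 0 fell after 1 h of EGF and the same counts after 1 h of HRG, with medians of 0.29 and 0.39 against 0.00 and -0.01 over all genes. At 24 h of EGF 5 were raised and 4 lowered, and at 24 h of HRG 5 and 6. In BT474R, EGF raised 2 at 1 h, 4 at 12 h and 7 at 24 h, when 1 fell, and HRG raised 2, 1 and 0, with 1 that fell at 24 h. JUNB, an AP-1 subunit, was 90.7 and 84.1 CPM with vehicle at 1 h in BT474, 298 and 308 with EGF and 379 and 341 with HRG (1.77 ± 0.05 and 2.03 ± 0.05, adjusted p = 2.74e-26 and 2.97e-28). At 24 h in that line it fell with both ligands (-0.17 ± 0.05 and -0.28 ± 0.05), and in BT474R it rose with EGF at 1 h, 12 h and also 24 h (1.36 ± 0.09, 0.61 ± 0.10 and 0.49 ± 0.10) and with HRG at 1 h (0.85 ± 0.09). CDKN1A, the cyclin-dependent kinase inhibitor p21, rose in all 6 BT474 comparisons (0.28 to 1.39) and with EGF at 12 h and 24 h in BT474R (1.24 ± 0.26 and 1.16 ± 0.24). BHLHE40, a helix-loop-helix repressor, rose at 12 h and 24 h with both ligands in BT474 (0.99 to 1.31) and with EGF in BT474R (1.25 ± 0.18 and 1.42 ± 0.17), and in that line also at 12 h with HRG (0.67 ± 0.18).

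Among 21 secreted antagonists and latency proteins, 12 were tested in BT474, with 4 calls up and 14 down in 72 tests and medians of -0.27 to -0.00, and 13 in BT474R, with 4 up and 5 down in 78 and medians of -0.16 to 0.06. NOG, which encodes the BMP antagonist noggin, was among those that rose. In BT474R it was 6.81 and 7.46 CPM with vehicle and 13.8 and 12.3 with EGF at 1 h (0.87 ± 0.18, adjusted p = 0.0245), 8.82 and 9.24 against 26.3 and 28.1 at 12 h (1.59 ± 0.17, 6.91e-07), and 4.42 and 5.13 against 20.7 and 20.2 at 24 h (2.10 ± 0.19, 4.85e-08), without overlap. With HRG in BT474R it rose at 12 h (0.84 ± 0.17), and in BT474 it rose at 12 h with EGF (1.04 ± 0.19) and HRG (1.16 ± 0.19) and at 24 h with EGF (0.75 ± 0.20). FSTL1, a follistatin-like secreted protein called in 4 of the 12 ligand comparisons, fell in BT474 from 73.8 and 74.0 CPM with vehicle at 24 h to 39.8 and 40.7 with EGF and 30.9 and 33.7 with HRG (-0.88 ± 0.06 and -1.22 ± 0.06). At 12 h in BT474 it was already lower, at 58.8 and 54.6 with EGF and 56.2 and 59.1 with HRG against 77.5 and 76.4 with vehicle. In BT474R it was 0.180 to 1.17 CPM. LTBP3, a latent TGF-beta binding protein called in 5 of the 12, fell at 12 h and 24 h with both ligands in BT474 (-0.21 to -0.33).

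Of 22 ligands of the family, 19 were tested in each line, with 15 calls up and 7 down in 114 tests in BT474 (medians of -0.12 to 0.26) and 6 up and 3 down in 114 in BT474R (medians of -0.02 to 0.03). BMP7, called in 5 of the 12 ligand comparisons, was 205 and 202 CPM with vehicle at 12 h in BT474, 369 and 371 with EGF and 422 and 431 with HRG (0.85 ± 0.04 and 1.04 ± 0.04, adjusted p = 3.84e-19 and 2.19e-22). At 24 h in BT474 it was still above vehicle (202 and 200 CPM), at 299 and 305 with EGF and 287 and 315 with HRG. In BT474R it passed with EGF at 12 h (0.39 ± 0.11, 0.0182). TGFB3 rose at 12 h and 24 h with both ligands in BT474 (0.40 to 0.51) and fell with EGF at 24 h in BT474R (-0.33 ± 0.08). INHBB, an inhibin beta subunit, rose at 1 h and 12 h with both ligands in BT474 (0.16 to 0.26) and fell at 24 h with HRG (-0.12 ± 0.04). The 18 receptors and co-receptors had 4 calls up and 6 down in 96 tests in BT474 and 5 up and 2 down in 90 in BT474R. At most 2 rose and 2 fell in a comparison, TGFBR1 among the former at 12 h and 24 h in BT474 (0.18 to 0.32) and ACVR2B among the latter at 1 h with EGF (-0.43 ± 0.10) and at 12 h with both ligands (-0.61 ± 0.10 and -0.64 ± 0.10), and ACVR1 rose with EGF in BT474R at 12 h and 24 h (0.29 ± 0.08 and 0.36 ± 0.08). The 6 SMAD transducers had 4 calls up in 36 tests in BT474 and 3 up in 36 in BT474R, with medians up to 0.10 and 0.19. At most 2 rose and 0 fell in any comparison, with SMAD2 called in 5 of 12 (0.12 to 0.21), SMAD3 with HRG at 12 h in BT474 (0.18 ± 0.07) and SMAD1 with EGF at 12 h in BT474R (0.36 ± 0.09).

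Of 20 intracellular regulators, 19 were tested, with 15 calls up and 7 down in 114 tests in BT474 and 2 up and 2 down in 114 in BT474R. STRAP, a receptor-associated protein, rose at 12 h and 24 h with both ligands in BT474 (0.17 to 0.23), and the ubiquitin ligase SMURF1 with HRG at 12 h in BT474 (0.17 ± 0.06) and with EGF in BT474R at 12 h and 24 h (0.26 ± 0.06 and 0.32 ± 0.06). WWP1, another ubiquitin ligase, rose at 1 h with HRG in BT474 (0.21 ± 0.04) and fell at 12 h with EGF and HRG (-0.17 ± 0.04 and -0.24 ± 0.04). Of 10 E proteins and helix-loop-helix partners, 8 were tested, with 10 calls up and 8 down in 48 tests in BT474 and 2 up and 6 down in 48 in BT474R. HEY2, a transcriptional repressor, fell in BT474 from 12.0 and 12.7 CPM with vehicle at 12 h to 6.30 and 6.82 with EGF and 4.88 and 5.24 with HRG (-0.93 ± 0.12 and -1.31 ± 0.12), and again at 24 h (-1.11 ± 0.11 and -1.18 ± 0.11), and in BT474R at 12 h with EGF (-1.43 ± 0.29). HES1, a Notch target and repressor, was called in 6 of the 12 ligand comparisons, among them EGF at 1 h in both lines (0.33 ± 0.04 and 0.41 ± 0.08). In BT474 every ligand library lay above both vehicle libraries of its time, as with HRG at 1 h (117 and 110 CPM against 92.0 and 98.3). In BT474R, HRG and vehicle overlapped at 12 h and 24 h. ASCL2 rose at 12 h with both ligands in BT474 (0.22 ± 0.07 and 0.18 ± 0.07) and at 24 h with EGF (0.21 ± 0.07). Over the 7 lists, the medians lay within -0.27 and 0.39, and the median of all genes within -0.03 and 0.01.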

How the data were processed

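RNA-seq libraries of 20 groups, with 2 libraries each, were used as deposited. The authors trimmed reads with Trim Galore 0.6.6, checked them with FastQC and MultiQC, and made raw counts per gene with featureCounts on GRCh38.p13, and the deposited table holds these counts without normalization. The annotation release and the strand setting are not given in the sources used here. Rows named for another gene with a number added (copy rows, 5078) held 2.96% of all counts. Groups came from the labels.

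Genes with at least 1 count in 50% of a fit's libraries were kept. Counts were fitted with edgeR 4.0.16 (R 4.3.3), with TMM factors (0.936 to 1.078) and the quasi-likelihood test, in each line alone (20 libraries) for ligand, time and vehicle comparisons and in both (40) for comparisons between lines, and p-values were adjusted by Benjamini-Hochberg over all genes tested. The common dispersion came to 0.00121 for BT474, 0.003 for BT474R and 0.00209 over both lines. SE is the absolute log2 fold change divided by the square root of F. The detection limit of 3 counts is 0.0929 to 0.18 CPM. Intervals and limits cover counting error only, since reads are not independent molecules. The scripts were tested on simulated data. The criterion on recovery was limited to genes with higher counts after the interaction contrast first fell short. It therefore does not cover genes with counts as low as ID3.

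All members were named in every comparison. Of each list, up to 3 genes with a mean of at least 1 CPM that were called in most of the 12 ligand comparisons were named, and for each member the 2 genes closest by correlation (log2 CPM with a prior count of 2). The members and lists were chosen with earlier results of these data known. Alternatives were DESeq2 1.42.0, its size factors with edgeR, filterByExpr, no filter, a replicate block, a fit of only the libraries compared, 1 fit of both lines, copy rows summed, and each library left out.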

Additional observations from a re-analysis of the deposited data

Results flagged for a closer look

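The values here are differences between effects of the same contrast that passed the quasi-likelihood test in edgeR, corrected by the Benjamini-Hochberg method, between 2 times or between the 2 lines. In BT474 the EGF effect at 12 h minus that at 1 h was 0.88 ± 0.24 (SE, adjusted p = 0.014) for ID1, 0.54 ± 0.07 (1.73e-07) for ID2, -1.30 ± 0.38 (0.0236) for ID4 and -0.32 ± 0.07 (0.00181) for BAMBI. The HRG effect over the same times differed by 1.37 ± 0.23 (2.56e-05) for ID1, 0.62 ± 0.07 (5.16e-09) for ID2, -1.78 ± 0.36 (0.00041) for ID4 and -0.25 ± 0.07 (0.0125) for BAMBI. From 12 h to 24 h the BAMBI effect differed by 0.30 ± 0.07 (0.0393) with EGF and 0.40 ± 0.07 (0.000306) with HRG. In BT474R the EGF effect at 12 h minus that at 1 h was 0.91 ± 0.21 (0.0108) for ID1 and -0.485 ± 0.09 (0.00209) for BAMBI, and the HRG effect differed by -0.38 ± 0.09 (0.0445) for BAMBI.

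Between the lines, as the effect in BT474R minus that in BT474, ID2 differed by 0.52 ± 0.12 (adjusted p = 0.0237) with HRG at 1 h. At 12 h BAMBI differed by -0.40 ± 0.09 (0.00562) and TGIF1 by 0.36 ± 0.09 (0.014) with EGF, and BAMBI by -0.32 ± 0.09 (0.0234) with HRG. At 24 h ID3 differed by 3.43 ± 0.81 (0.00712) and BAMBI by -0.66 ± 0.09 (1.45e-06) with EGF, and ID3 by 2.80 ± 0.78 (0.0365) and BAMBI by -0.48 ± 0.09 (0.000444) with HRG. The ID3 row had 2 counts in each 24 h vehicle library of BT474R, and with its copy row ID3_1 summed in the difference was 2.45 (5.17e-05) with EGF and 1.18 with HRG, which did not pass (0.0938).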

How the results depend on the processing

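Of 103 member calls, 51 held in every alternative and with every library left out, 26 were lost in at least 1 alternative, 48 with at least 1 library left out, and 0 changed direction. With only the libraries compared in the fit, HRG against EGF gave 1 call, where the full fit gave 6. Leaving out each library in turn gave 35 to 42 ligand against vehicle calls (37 in the full fit), 25 to 29 between lines (27), 7 to 13 for vehicle against T0 (12, lowest without replicate 2 of the BT474 T0 group), 9 to 15 between times (13), 5 to 10 between lines for ligand effects (8, lowest without replicate 2 of the BT474R 12 h vehicle) and 5 to 6 for HRG against EGF. In all genes called, HRG against EGF gave 2388, 3648 with no filter and 1502 with only the libraries compared.

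Same-numbered libraries showed little common deviation (correlations of -0.015 to 0.082 in BT474 and -0.06 to 0.152 in BT474R). Such correlations cannot show whether they shared a culture or a batch, and the labels do not say. With the replicate block the calls were 39 for ligand against vehicle, 6 for HRG against EGF, 13 for vehicle against T0, 15 between times, 29 between lines and 8 for ligand effects between lines. A block within each time, chosen after seeing the data, gave 40, 7, 14, 15, 31 and 10.

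With 2 libraries a group, small differences are not resolved, and ID3 and ID4 in BT474R are limited by depth, with 3 and 2 libraries at or under 3 counts.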
